A study of Mus musculus with 2 samples.

Results

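The genes examined were 10 that carry fibroblast growth factor (FGF), NODAL and BMP, and leukaemia inhibitory factor (LIF) signals in stem cells. They were Fgf4, Fgfr1, Spry4, Nodal, Tdgf1, Lefty1, Lefty2, Bmp4, Lifr and Il6st. MAFK binding near them was read from a deposited list of 16865 regions, called optimal by the authors. Every region whose summit lay within 50 kb of any annotated transcription start site (TSS) of the 10 genes in GENCODE vM21 was taken. This gave 26 of the 16865 regions, and each of the 10 genes had at least 1.

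Binding was mapped by chromatin immunoprecipitation with sequencing (ChIP-seq) with an antibody to MAFK in ES-E14, an embryonic stem cell line derived from a male 129/Ola mouse embryo. The cells formed 1 group with 2 biological replicates. Both replicates carry the same biosample label, so the spread between them may be partly technical. The labels name no treatment. A second cell type and a MAFK-deficient group were not among the samples, and the control experiment named in the labels was not analysed here. The files hold regions and no expression values, so neither the cell type nor the activity of the genes could be checked with them.

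MAFK is a small MAF protein: it has a DNA-binding domain but no activation domain of its own, and it binds DNA as a dimer with itself or with a CNC-family partner such as NFE2, NRF2 or BACH1. In mouse embryonic stem cells, FGF4 acts through FGFR1 and the RAS and ERK cascade and moves cells toward differentiation. LIF binds LIFR together with gp130, the product of Il6st, and sustains self-renewal through JAK and STAT3. NODAL signals through activin receptors with the co-receptor CRIPTO, the product of Tdgf1, and is restrained by LEFTY1 and LEFTY2, while BMP4 works beside LIF through SMAD proteins and Id genes.

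The sequences around the strongest region of 8 of the genes are shown first because the regions differed in which MAF-type elements they held. Each is 81 bases of the plus strand of GRCm38 (the assembly of mm10), taken from the RefSeq FASTA and centred on the summit. Capitals mark matches on either strand to the MAF core TGCTGA, the antioxidant response element (ARE) core TGACNNNGC or TGAGNNNGC, the AP-1 element TGACTCA or TGAGTCA, the NFE2-type composite element, which joins an AP-1 element to a MAF-type end, and the T-MARE palindrome with up to 2 mismatches. These elements overlap one another, so 1 stretch of capitals can hold several.

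Fgf4, intronic region, chr7:144857343-144857423: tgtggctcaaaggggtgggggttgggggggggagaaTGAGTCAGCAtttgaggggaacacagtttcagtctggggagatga
Fgfr1, region at an internal start site, chr8:25531938-25532018: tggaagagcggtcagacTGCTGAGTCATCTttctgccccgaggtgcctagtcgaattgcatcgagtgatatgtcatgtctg
Nodal, downstream region, chr10:61457363-61457443: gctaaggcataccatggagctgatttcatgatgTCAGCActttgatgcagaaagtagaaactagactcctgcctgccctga
Tdgf1, upstream region, chr9:110950256-110950336: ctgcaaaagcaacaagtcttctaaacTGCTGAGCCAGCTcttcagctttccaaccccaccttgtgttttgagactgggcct
Lefty2, upstream region shared with Lefty1, chr1:180889912-180889992: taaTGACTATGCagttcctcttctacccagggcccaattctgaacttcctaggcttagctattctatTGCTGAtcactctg
Bmp4, downstream region, chr14:46344906-46344986: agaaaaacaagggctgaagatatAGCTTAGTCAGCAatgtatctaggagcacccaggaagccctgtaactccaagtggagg
Lifr, intronic region, chr15:7180461-7180541: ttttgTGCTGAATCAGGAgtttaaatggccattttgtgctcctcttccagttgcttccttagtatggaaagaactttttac
Il6st, upstream region, chr13:112439179-112439259: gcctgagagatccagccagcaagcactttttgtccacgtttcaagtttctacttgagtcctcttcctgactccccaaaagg

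In the Fgf4 and Fgfr1 sequences the composite element was complete. The Tdgf1, Bmp4 and Lifr sequences held a T-MARE with mismatches, and the Nodal sequence held the MAF core alone. The Lefty2 sequence held an ARE core and a MAF core that did not overlap. The Il6st sequence held none of the elements searched.

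The strongest region of all 26 lay in an intron of Fgf4, which encodes an FGF that stem cells secrete. The gene (ENSMUSG00000050917.5) spans chromosome 7, 144847367 to 144865243, on the plus strand. The region, at 144857287 to 144857471, had its summit 4003 bp upstream of the nearer of the gene's 2 annotated start sites. Its signal was 133.2, rank 876 of 16865. Signal here is the score that the authors deposited for each region; its scale is not stated, so it is used to order regions within a list. In the relaxed lists, which were made for each replicate with a loose threshold and include background, the same position had 52.5 in replicate 1 (rank 1374 of 264306) and 78.4 in replicate 2 (rank 617 of 300000). It was in the thresholded lists of both replicates. The composite element was centred 0.5 bp from the summit.

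A second strong Fgf4 region lay 46623 bp downstream of the start site, at chromosome 7, 144907939 to 144908085, in an intron of the gene model Gm39119. Its signal was 94.3, rank 1577, with 32.3 in replicate 1 and 61.5 in replicate 2, and it was in both replicates' lists. The nearest protein-coding start site was that of LTO1, 7091 bp away. Together with the intronic region it made up the 2 of the 26 that were among the strongest 10% of the list. The third Fgf4 region, 11999 bp downstream, had a signal of 18.9 and was in neither replicate's list.

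Fgfr1 encodes the main FGF receptor of these cells, and 4 regions lay within 50 kb of its start sites. The gene (ENSMUSG00000031565.18) spans chromosome 8, 25513654 to 25575718, on the plus strand, with 18 annotated start sites. The strongest region, at 25531830 to 25532125, was in an intron with its summit 147 bp upstream of an internal start site of a protein-coding transcript. Its signal was 61.1 (rank 3124), with 30.3 in replicate 1 and 32.3 in replicate 2, at ranks 3140 and 2933. It was in both replicates' lists. No other region of the 26 lay as close to a start site of its gene.

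A pair of Fgfr1 regions lay far upstream, 47979 and 47516 bp from the nearest start site, in introns of the gene model Gm31045. The first, at chromosome 8, 25465527 to 25465822, had a signal of 47.3, with 18.9 in replicate 1 and 29.3 in replicate 2, held the composite element 9.5 bp from its summit and was in both replicates' lists. Its neighbour had a signal of 26.2, with an ARE core but no composite element, and was in the list of replicate 1 only. The last Fgfr1 region, with a signal of 30.1, lay in an exon of the noncoding gene D830025C05Rik. Its summit was 1400 bp from the start site of Letm2 and 29259 bp from the nearest Fgfr1 start site, which belongs to a transcript with a retained intron. From the start sites of protein-coding Fgfr1 transcripts it was 66701 bp away.

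Spry4 encodes a Sprouty protein, a feedback inhibitor of receptor tyrosine kinase signals that FGF itself induces. The gene (ENSMUSG00000024427.7) has 1 annotated start site, and 1 region lay within 50 kb, with its summit 213 bp upstream of that site, in an exon of the noncoding gene AC133601.1. The signal was 20.7 (rank 11707), with 9.3 in replicate 1 and 8.6 in replicate 2. It was in neither replicate's list, and it held none of the elements searched. Spry4 was the only one of the 10 genes with no region within 50 kb in the thresholded list of either replicate.

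**Figure D1:**
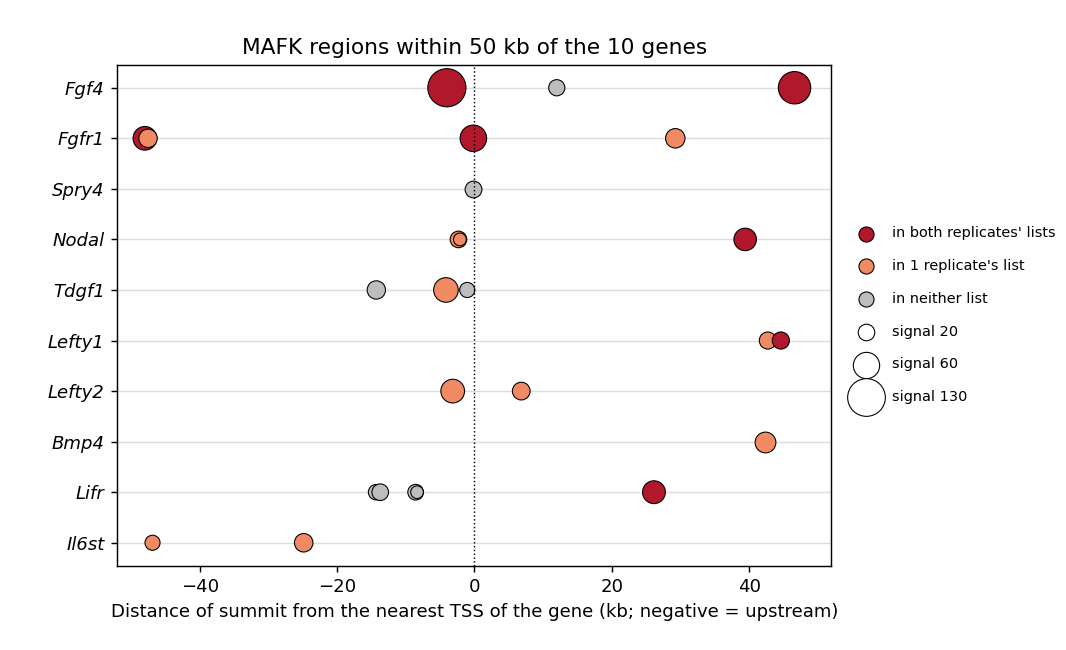
Position of the 26 regions around the 10 genes, as the distance of the summit from the nearest TSS of the gene in kb, with negative values upstream. Each region is drawn only in the row of its closest gene, so the 2 regions that Lefty1 shares with Lefty2 appear under Lefty2 and not under Lefty1. Circle area follows the deposited signal and colour the number of replicate lists that hold the region: the largest circles are the Fgf4 regions of 133.2 and 94.3, and of the 11 regions within 10 kb of a start site 2 are red.

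Nodal encodes the TGF-beta family ligand that keeps epiblast cells in a pluripotent state. The gene (ENSMUSG00000037171.6) spans chromosome 10, 61417972 to 61425338, on the plus strand. Its strongest region was not at the promoter but 39431 bp downstream of the start site, at 61457255 to 61457550, where the nearest protein-coding start site was that of Eif4ebp2, a translation regulator, 4742 bp away. Its signal was 42.3 (rank 5107), with 23.2 in replicate 1 and 17.2 in replicate 2, and it was in both replicates' lists. A pair of overlapping regions lay upstream, 2316 and 2109 bp from the start site, with signals of 20.2 and 9.5. Their summits were 207 bp apart, they shared 1 region in each relaxed list (11.4 in replicate 1 and 13.8 in replicate 2), and they overlapped the list of replicate 2 only. They are 2 regions of the list, and the counts below take them separately unless stated.

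Tdgf1 encodes CRIPTO, the membrane-anchored co-receptor of NODAL. The gene (ENSMUSG00000032494.12) spans chromosome 9, 110939603 to 110946158, on the minus strand. All 3 of its regions lay upstream, toward Lrrc2, a gene for a leucine-rich repeat protein. The strongest, at 110950148 to 110950443, was 4138 bp from the Tdgf1 start site and 1249 bp from that of Lrrc2. Its signal was 51.8 (rank 3879), with 23.5 in replicate 1 and 27.2 in replicate 2 (ranks 4395 and 3780). It was in the thresholded list of replicate 2 and not in that of replicate 1, and repeat-masked sequence held its summit.

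The region closest to Tdgf1, 1037 bp upstream, was the least alike in the replicates. Its signal was 15.7 in the optimal list, 7.4 in replicate 1 (rank 18255 of 264306) and 2.6 in replicate 2 (rank 285664 of 300000), which is near the end of that relaxed list. It was in neither replicate's list, not in the conservative list, and held none of the elements. The third region, 14277 bp upstream in an intron of Lrrc2, had a signal of 26 and an AP-1 element 2 bp from its summit, and was in neither replicate's list.

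Lefty1 and Lefty2 are neighbouring genes for secreted inhibitors of NODAL, and they are themselves induced by it. Lefty2 (ENSMUSG00000066652.5) spans chromosome 1, 180893108 to 180899103, and Lefty1 (ENSMUSG00000038793.8) spans 180935022 to 180938400, both on the plus strand. The 2 regions of Lefty2 also lay within 50 kb of Lefty1, so the genes share them. The stronger, at 180889804 to 180890099, was 3156 bp upstream of Lefty2, with a signal of 47.6 (rank 4315), 20.4 in replicate 1 and 26.5 in replicate 2. It was in the list of replicate 2 only. The other, at 180901137 to 180901432, was 6827 bp downstream of the nearest Lefty2 start site, with a signal of 23.9, 14.5 in replicate 1 and 8.4 in replicate 2. It was in the list of replicate 1 only.

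Lefty1 had no summit of the optimal list within 10 kb; its nearest was 33737 bp away, in the downstream Lefty2 region. Its 2 other regions were 42729 and 44626 bp downstream in introns of Ephx1, which encodes an epoxide hydrolase, with signals of 21.7 and 21.9. The nearer was in the list of replicate 1 only and the farther in both. Both held an ARE core, and the first held 2 of them.

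Bmp4 encodes the BMP ligand of this set. The gene (ENSMUSG00000021835.15) spans chromosome 14, 46383520 to 46390669, on the minus strand. Its single region, at 46344798 to 46345093, was intergenic, 42358 bp downstream of the nearest start site and 34468 bp from the start site of the predicted gene Gm15217. The signal was 35.1 (rank 6406), with 13.7 in replicate 1 and 21.1 in replicate 2. It was in the list of replicate 2 only, and it held an ARE core, a MAF core and a T-MARE with mismatches within 12 bp of its summit.

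Lifr encodes the LIF receptor, and its 5 regions were the most of any of the 10 genes. The gene (ENSMUSG00000054263.12) spans chromosome 15, 7090614 to 7197489, on the plus strand, with 7 annotated start sites. The strongest region, at 7180353 to 7180648, was in an intron 26148 bp downstream of the nearest start site, with a signal of 43.7 (rank 4884), 22.3 in replicate 1 and 20.1 in replicate 2, and was in both replicates' lists. The other 4 were in neither list. An overlapping pair 8551 and 8346 bp upstream had signals of 17.4 and 9.1 and shared 1 region in each relaxed list, with 11.6 in replicate 1 (rank 10357) and 4.3 in replicate 2 (rank 82200). Regions 14325 and 13707 bp upstream of an internal start site, both intronic, had signals of 16.2 and 20.2. The second of these was the one region of the 26 with a SOX-OCT composite element, the joint site of SOX2 and OCT4. The search allowed up to 2 mismatches in this element, and the match was centred 17 bp from the summit. Under the same rule a match was found in 0.434% of all regions of the list.

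Il6st encodes gp130, the signalling chain shared by LIF and related cytokines. The gene (ENSMUSG00000021756.12) spans chromosome 13, 112464070 to 112510086, on the plus strand. Both of its regions lay upstream, and both were in the list of replicate 2 only. The nearer, at 112439071 to 112439366, was 24851 bp from the nearest start site, with a signal of 26.6 (rank 8859), 8.8 in replicate 1 and 16.0 in replicate 2. The farther, at 112417057 to 112417352, was 46865 bp away in an exon of the noncoding gene 2810403G07Rik, 160 bp from the start of that gene. Its signal was 15.5, with 4.3 in replicate 1 (rank 48338) and 11.7 in replicate 2 (rank 11371), and it was not in the conservative list. This farther region held an ARE core, a MAF core and a T-MARE with mismatches within 7 bp of its summit, whereas the nearer held none.

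**Figure D2:**
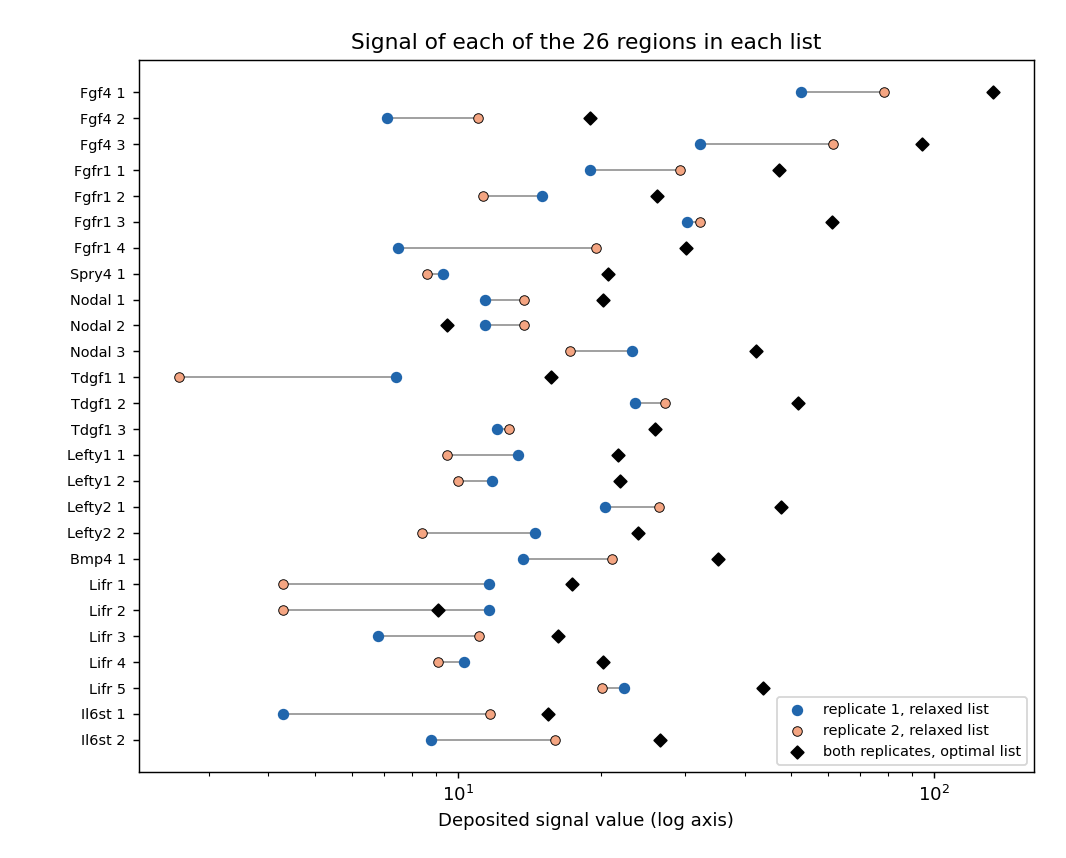
Deposited signal (log axis) of each of the 26 regions in the relaxed list of replicate 1, the relaxed list of replicate 2 and the optimal list made from both; regions of a gene are numbered along the chromosome, and lines join the replicates. The first Fgf4 region is highest in every list (52.5, 78.4 and 133.2), and the first Tdgf1 region is lowest in replicate 2 (2.6).

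Across the 26 regions the signal ranged between 9.1 and 133.2, with a median of 24.95 and quartiles of 19.2 and 43.4. Over all regions of the list the median was 27.9, and 10 of the 26 were above it. Counted as separate stretches of the genome, with the overlapping Nodal and Lifr pairs merged, there were 24; all other counts are over the 26. By location, 12 summits were intergenic, 11 in introns and 3 in noncoding exons, and these shares were not counted over all regions. For 17 of the 26 the nearest protein-coding start site belonged to one of the 10 genes, and for 9 it belonged to another gene. Only regions within 50 kb of the 10 genes were taken, which favours the count of 17, and it has no share of all regions beside it. A region near a gene does not show that the gene is its target.

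Summits lay within 10 kb of a start site of one of the genes in 11 of the 26 regions. Only 3 of the 26 (11.5%) were within 1 kb of any protein-coding start site, against 11.8% of all regions. Repeat-masked sequence held the summit of 4 of the 26, which is 15.4%, against 16.4% of all regions. Of the 26, 24 (92.3%) were exactly 296 bp wide, against 84.3% of all regions. The shares within 1 kb of a start site and in repeats lay close to those of the whole list.

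Counted by gene, all 10 had a summit within 50 kb, against 59.3% of 21938 protein-coding genes. With narrower windows, 7 of the 10 had one within 20 kb (38.4% of all genes) and the same number within 10 kb (26.9%). Within 5 kb the count was 6 (18.6%), and within 2 kb it was 3 (12.0%): Fgfr1, Spry4 and Tdgf1. Within 100 kb it was again 10, against 75.3%. The genes without a summit within 10 kb were Lefty1, Bmp4 and Il6st. In the thresholded list of replicate 1 alone the counts were 6 within 50 kb and 3 within 10 kb, and in that of replicate 2 alone they were 9 and 5. The share of all genes was not counted for these 2 shorter lists, and the shares above, from the optimal list, do not apply to them. The number of regions per gene within 50 kb was 1 to 5, with a median of 3, against a median of 1 and a range of 0 to 22 over all genes. Annotated start sites, which widen the window, had a median of 3 per gene both in the 10 and in all protein-coding genes. They ranged between 1 and 18 in the 10, with the most in Fgfr1, and between 1 and 58 in all. Their effect on these shares was not tested. With 10 genes chosen with earlier results known, these shares are given as a description and without a test.

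**Figure D3:**
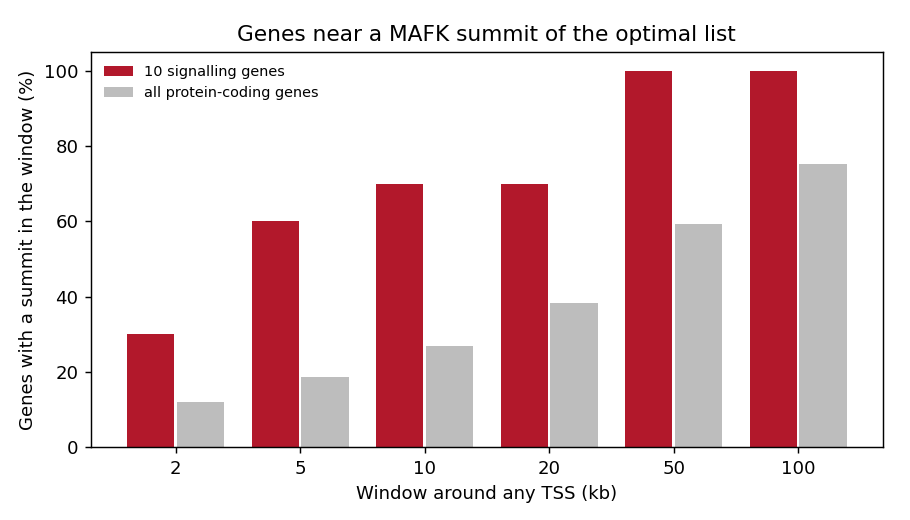
Share of genes (%) with at least 1 summit of the optimal list within 2 to 100 kb of any TSS, for the 10 signalling genes (red) and all 21938 protein-coding genes (grey). The red bar is taller in every window, at 70% against 26.9% within 10 kb, and 1 gene of the 10 moves it by 10 percentage points.

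At the distance limit, the outermost regions inside were those of Fgfr1 at 47979 bp (signal 47.3) and 47516 bp (26.2) and of Il6st at 46865 bp (15.5). The first region outside lay 51074 bp from Lefty1, with a signal of 14.3, and the next 62712 bp from Nodal, with a signal of 43.7.

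In the replicates' own thresholded lists, 7 of the 26 regions were present in both, which is 26.9%, against 35.4% of all regions. The 7 were the intronic and the far downstream Fgf4 regions, the internal and a far upstream Fgfr1 region, the downstream Nodal region, the farther Lefty1 region and the intronic Lifr region. At least 1 list held 18 of the 26, which is 69.2%, against 61.9% of all regions. Of these, 3 were in the list of replicate 1 only and 8 in that of replicate 2 only. The list of replicate 2 is the longer, with 9541 regions against 7748 for replicate 1. These lists come from a second processing run, so the comparison crosses runs as well as replicates.

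Of the 8 regions in neither list, 4 were Lifr regions and 2 were Tdgf1 regions, and the others were those of Spry4 and the weakest of Fgf4. In the conservative list, 22 of the 26 were present, which is 84.6%, against 81.8% of all regions. The 4 missing were the closest Tdgf1 region, the overlapping Lifr pair and the farther Il6st region. The replicate 1 list held a region within 50 kb of 6 of the genes, with none near Spry4, Tdgf1, Bmp4 or Il6st, and the replicate 2 list held one near 9. No share of all genes was counted for these lists.

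Every one of the 26 positions had a region in both relaxed lists, as did most of the optimal list (16473 regions). As a description, the Spearman rho of the replicates' signals was 0.627 over the 26 regions and 0.687 over the 16473 regions of the list with a value in both; regions of 1 library share its depth and are not independent. The summit in the replicate lay a median of 6 bp from the optimal summit in replicate 1 and 9 bp in replicate 2.

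**Figure D4:**
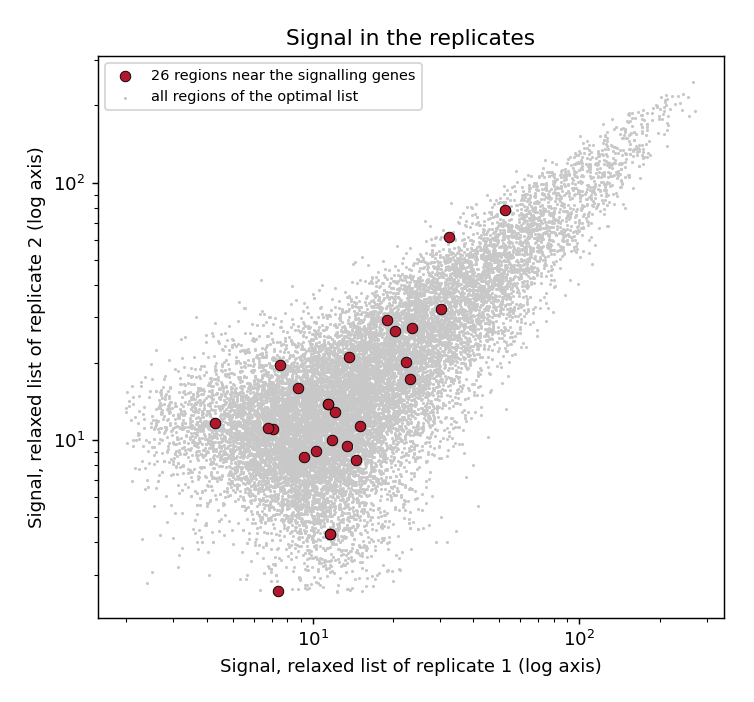
Deposited signal in the relaxed list of replicate 1 against that of replicate 2 (both axes log), for the 26 regions near the signalling genes (red) and all regions of the optimal list with a value in both (grey). The 2 red points at the top right are the strongest Fgf4 regions, the point at 7.4 and 2.6 is the closest Tdgf1 region, and the rest lie within the main cloud, mostly at low signal.

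The search for elements covered both strands and 50 bp to either side of each summit. The composite element was present in 3 of the 26 regions (11.5%), against 28.2% of all regions. These 3 were the intronic Fgf4 region and the Fgfr1 regions at the internal start site and far upstream, with signals of 133.2, 61.1 and 47.3. The ARE core was in 13 (50%), against 60.3%, and the MAF core in 12 (46.2%), against 62.8%. The T-MARE was in 7 (26.9%), against 39.2%, and the AP-1 element in 6 (23.1%), against 37.8%. The share was thus lower near the 10 genes for each of these 5 elements. With 26 regions it was not tested. Every composite element also holds an AP-1 element, an ARE core and a MAF core, so the 5 shares are not independent of one another.

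In windows of the same width 1 kb to either side of all regions, the ARE core was found in 7.15%, the MAF core in 7.29%, the AP-1 element in 1.81%, the T-MARE in 0.401% and the composite element in 0.0891%. In the 52 such windows beside the 26 regions, the ARE core was found in 4, the MAF core in 1 and the composite element in 0. A match describes the letters in the window and does not show which protein was bound.

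Regions with an ARE or MAF core had the higher median signal. The 16 with either had a median of 38.7 (15.5 to 133.2), and the 10 with neither had a median of 20.45 (9.1 to 30.1), so the ranges overlapped. The same order held over the list, with medians of 30.8 in 13321 regions with a core and 20.1 in 3515 without. The downstream Lefty2 region, which had neither, held a CTCF-type core, AGNNGGCGC, found in 1.55% of all regions; this element was looked for after the sequence had been seen.

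**Figure D5:**
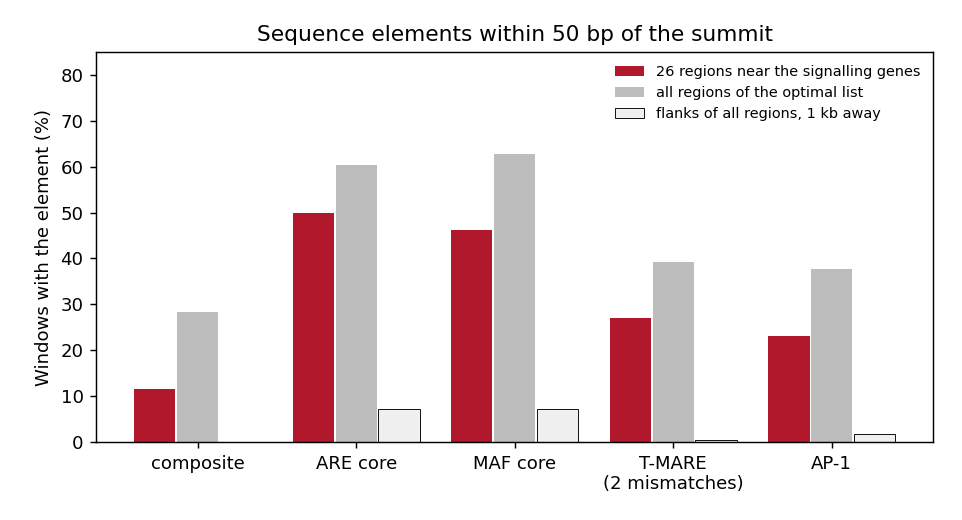
Share of windows (%) that hold each sequence element within 50 bp of the summit, for the 26 regions near the signalling genes (red), all regions of the optimal list (grey) and windows of the same width 1 kb away (white). The red bar is lower than the grey one for all 5 elements (composite 11.5% against 28.2%), and both are above the white bar. The elements overlap one another, so the 5 pairs of bars are not independent.

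At the promoters themselves, within 1 kb of any start site, the relaxed list of the pooled replicates was read for the strongest signal. For some genes this was the highest of several regions (9 for Fgfr1, with its 18 start sites, and 1 for Lefty2). The list median given below is over single regions, so the 2 are not like for like. It was 61.1 for Fgfr1, 20.7 for Spry4, 17.1 for Lifr and 11.3 for Lefty1. For Tdgf1, Il6st, Bmp4 and Nodal it was between 7.2 and 7.8, for Fgf4 it was 6.0 (rank 92418) and for Lefty2 5.1, against a median of 5.0 over the 300000 regions of that list. The Fgf4 intronic region, which ranked 876 in the same list, thus stood far above the signal at the start sites of the gene, where replicate 2 listed no region.

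The RefSeq promoter table for GRCm38.p6, which covers the bases around each start, matched 6 of the genes in 7 windows; Fgfr1, Spry4, Lefty1 and Lefty2 were not searched. An ARE core was present for Il6st, Lifr and Nodal, and in 27.8% of 32851 windows of the genome. A MAF core (19.5% of windows) and a T-MARE with mismatches (1.21%) were present in the Nodal window only, overlapping each other downstream of the start, where the optimal list had no region. The composite element was found in 0 of the 7 windows and in 0.289% of all windows.

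Among other genes of the same pathways, 10 of 30 FGF pathway genes (33.3%), 12 of 31 NODAL and BMP pathway genes (38.7%) and 7 of 14 LIF pathway genes (50%) had a summit within 10 kb, against 26.9% of all protein-coding genes. Among the genes with a summit within 10 kb, the strongest such region was in both replicates' lists for 5 of 10 FGF, 6 of 12 NODAL and BMP and 2 of 7 LIF genes. Of all regions of the optimal list, 35.4% were in both. That share is over single regions and not over the strongest region of a gene, so the 2 are not like for like. The lists were not tested, and the LIF share rests on 14 genes.

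In the FGF list the highest signals were at Etv5, an ETS factor gene that ERK activity induces (111.5, at chromosome 16, 22402703 to 22402824, 921 bp from a start site), and Frs2, which encodes the adaptor that docks to FGF receptors (57.9). They were followed by the ERK kinase gene Map2k1 (48.9), the adaptor gene Shc1 (45.7) and the ligand gene Fgf8 (38.9). The Fgf8 region lay 4749 bp from a start site of Fgf8, and the nearest protein-coding start site was that of Npm3. In the NODAL and BMP list they were at the activin receptor genes Acvr2a (71.4) and Acvr1c (44.0), the BMP target Id3 (39.5), the type I receptor gene Acvr1 (37.6) and the corepressor gene Tgif1 (31.0).

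In the LIF list the highest signal was at Socs3, the STAT3-induced feedback inhibitor of gp130 (99.5, at chromosome 11, 117963195 to 117963326, 5940 bp from a start site). Jak1, the kinase that gp130 carries, had 47.2, and the STAT3-induced kinase genes Pim1 and Pim3 had 30.6 and 26. The cytokine gene Cntf had 27.7. Stat3 and Lif themselves had their nearest summits 35002 and 32392 bp away.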

How the data were processed

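MAFK ChIP-seq regions of 2 replicates of ES-E14 were read from lists on mm10. Per the deposited text notes, a first run made relaxed lists with background for each replicate and the pool, and derived an optimal and a conservative list by the irreproducible discovery rate. A second run made thresholded lists for each replicate and both together. The sources used here do not name the aligner or caller. The signal value is a score of unstated scale, deposited by the authors for lists processed separately, so signals were compared within a list, and positions between lists by rank. The authors also deposited a −log10 q-value per region; it was not used to choose regions. Read depth is unknown.

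The 10 genes and the other lists of pathway genes were chosen with earlier results of these data known, so no p-value is given. Start sites came from GENCODE vM21. Named regions are every region within 10 kb of a gene of the set, its strongest within 50 kb and those in both replicates' lists; of the other pathway genes, up to 5 per list with the highest signal. Other regions were named after their values were seen. Overlap meant at least 1 bp shared. Location and sequence used the 16836 regions on assembled chromosomes. Alternatives were other lists, windows, start sites and element settings. The counting steps were run in Python 3.11.15 with pandas 2.3.3 and numpy 2.4.6. Of these steps, the element scan and the distance search were tested on simulated sequences and positions, and the others were not. Coordinates are 1-based.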

Additional observations from a re-analysis of the deposited data

How the results depend on the processing

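The results varied were the counts of genes with a summit within 50 kb and 10 kb, the 26 regions with their median signal, overlap and elements, and the 3 pathway lists. Of 82 alternative values, 53 stayed close to the reported value and 29 did not. A count was taken as close up to a ratio of 1.5, so 19 regions passed as close to 26. For the median signal the limit was narrower: 24.7 was close to 24.9 and 23.9 was not. The median signal of 24.9 came to 23.9 both in the conservative list and with start sites of protein-coding transcripts only. With the strongest 50% of the list, 4 genes had a summit within 10 kb, 10 regions remained with a median of 47.4, and 7 held an ARE core; 5 FGF, 7 NODAL and BMP and 3 LIF pathway genes were left. With the list of a single replicate (replicate 2 alone or replicate 1 alone), the genes with a summit numbered 6 to 9 within 50 kb and 3 to 5 within 10 kb, the regions 10 to 19, their median signal, on the scale of those lists, 17.95 to 20.8, those with an ARE core 7 to 9, and the LIF pathway genes 3 to 4; the lower counts of genes and regions were those of replicate 1 alone. Within 10 kb there were 11 regions, with a median of 20.7, 2 in both replicates' lists and 5 with an ARE core. Within 100 kb the median was 26.2 and 5 held the composite element. Within 2 kb, 3 genes had a summit, against 12.0% of all protein-coding genes. Within 50 kb, 27 of 30 FGF, 25 of 31 NODAL and BMP and 12 of 14 LIF pathway genes had one. The share of all protein-coding genes within 50 kb was 59.3%. For the strongest 50% of the list and for the single-replicate lists, the share of all genes was not counted. Within 25 bp of the summit 7 regions held an ARE core, and 10 held the composite element when 1 mismatch was allowed. In the latter case and with narrower or wider windows, the change follows from the setting; for the other lists the cause was not tested. No paired analysis was possible because there is 1 group. Lists without reads give no depth. All 26 positions, also those missing from a replicate's thresholded list, had a region in both relaxed lists, which include background. So did most of the optimal list (16473 regions), and this does not set the 26 apart.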
